A study of Mus musculus with 4 samples.

Results

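Guanylate-binding proteins (GBPs) and immunity-related GTPases (IRGs) are cell-autonomous defence enzymes that interferon-gamma induces in macrophages and many other cells. Here 10 of their genes were followed in CD11b+ cells of the mouse spleen, with and without repeated social threat to the animals. The genes were chosen by name, as the GBP genes Gbp2, Gbp3, Gbp4, Gbp5 and Gbp7 and the IRG genes Irgm1, Irgm2, Igtp, Iigp1 and Tgtp1, and every probe set whose gene symbol is, or includes, one of them was taken. That gave 12 of 45037 probe sets, covering 9 of the 10 genes. Of these, 7 genes had probe sets of their own. Gbp4 was read only by a probe set shared with Gbp8 and Tgtp1 only by a probe set shared with Tgtp2, and Gbp5 was named by none of the probe sets used here. The social threat group, labelled HighThreat, and the control group, labelled LowThreat, each had 2 pools of RNA from 5 mice, with 1 Affymetrix MOE430 2.0 array per pool, and CD11b+ cells were isolated from spleen in both. Strain, sex, age and the form of the threat are not given in the labels used here, and whether pools were isolated on the same day is not given either.

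GBPs and IRGs assemble on the vacuoles that enclose intracellular bacteria and parasites and help to disrupt them. GBPs are large GTPases related to dynamins. Among the IRGs, Irgm1, Irgm2 and Igtp are regulators that sit on the cell's own membranes and keep the effectors, such as Iigp1 (also called Irga6) and Tgtp1 (Irgb6), inactive there. Interferon-gamma acts through its receptor and the kinases Jak1 and Jak2 on GAS elements of its target genes, and through the transcription factor IRF1 on ISRE elements.

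The promoters of these genes are shown because most of them hold matches to these elements, in GBP and IRG genes alike. Promoter windows of 300 bases (250 before and 50 after the annotated start) came from RefSeq (GRCm38.p6). They were used for 8 of the 10 genes, Gbp3 having 2 windows, and no window of Gbp4 or Iigp1 was searched. A GAS element was searched as TTCNNNGAA and an ISRE core as a pair of GAAA blocks with 2 free bases between them, each on both strands, with overlapping matches counted. The ISRE core was matched in 8 of the 9 windows, against 3.44% of all 32851 windows, and the GAS element in 5 of the 9, against 8.3% of all. Both were matched in 5 of the 9 windows, of Gbp5, Gbp7, Igtp, Irgm2 and Tgtp1, against 0.454% of all. The 120 bases before the start are printed 5' to 3' for 6 members with measured values, with matches in capitals. In the first 2, an ISRE core (both) and 2 GAS elements (Gbp7) were matched, while the last 4 are IRG promoters.
Gbp2, chr3:142620543-142620662, plus strand: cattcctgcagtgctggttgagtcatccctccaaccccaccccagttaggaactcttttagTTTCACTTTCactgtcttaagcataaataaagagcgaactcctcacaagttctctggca
Gbp7, chr3:142530216-142530335, plus strand: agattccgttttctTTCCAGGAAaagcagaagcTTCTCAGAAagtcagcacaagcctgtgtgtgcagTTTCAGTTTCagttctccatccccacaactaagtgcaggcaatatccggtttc
Irgm1, chr11:48871421-48871540, minus strand: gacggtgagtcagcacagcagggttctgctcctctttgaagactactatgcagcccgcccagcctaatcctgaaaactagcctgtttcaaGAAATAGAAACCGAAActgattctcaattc
Irgm2, chr11:58214857-58214976, plus strand: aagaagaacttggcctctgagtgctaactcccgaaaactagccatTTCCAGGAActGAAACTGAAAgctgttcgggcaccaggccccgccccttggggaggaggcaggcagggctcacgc
Igtp, chr11:58199436-58199555, plus strand: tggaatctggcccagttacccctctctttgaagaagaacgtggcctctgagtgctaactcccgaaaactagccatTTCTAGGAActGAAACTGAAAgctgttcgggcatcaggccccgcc
Tgtp1, chr11:48992247-48992366, minus strand: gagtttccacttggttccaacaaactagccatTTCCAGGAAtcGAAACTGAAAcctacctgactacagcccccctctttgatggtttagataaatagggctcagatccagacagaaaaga
In Igtp, Irgm2 and Tgtp1 the GAS element stood 2 bases from the ISRE core. In Gbp7 the nearest pair was 25 bases apart and in Gbp5, 71. Irgm1 and the upstream window of Gbp3 each held 2 overlapping ISRE core matches and no GAS match. Among the 250 upstream bases, the longest run shared by a pair of members was 55 bases, in Igtp and Irgm2, and it contained neither element. Shorter runs of the same pair were not listed. The printed bases around the elements are nearly the same in Igtp and Irgm2, so the counts above include related sequences. Their ISRE core matches are identical, and their GAS matches read TTCTAGGAA in Igtp and TTCCAGGAA in Irgm2. The run shared by Irgm2 and Tgtp1 was 20 bases and contained the GAS element. A match is a description of these letters, and no binding was measured.

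**Figure D1:**
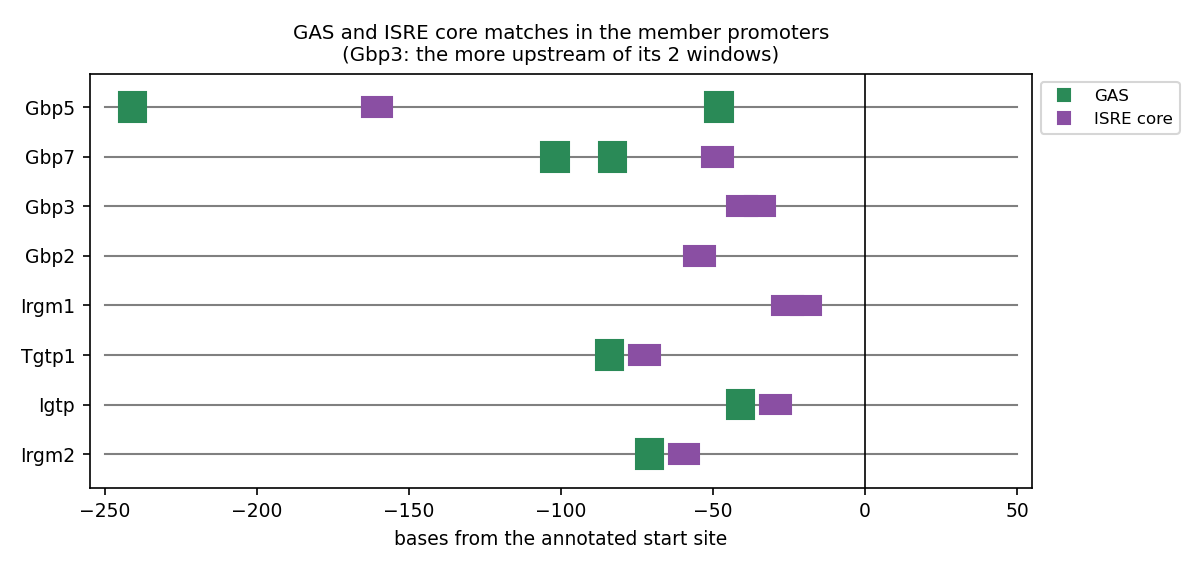
Positions of GAS elements (green) and ISRE cores (purple) along the promoter windows of 8 members, in bases from the annotated start site. Igtp, Irgm2 and Tgtp1 have the elements 2 bases apart, and Irgm1, Gbp2 and Gbp3 have ISRE cores alone.

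The comparison asked how these genes differed in CD11b+ spleen cells after social threat. Of the 5 IRG genes 3 fell, and of the 4 measured GBP genes 0 passed the test. Tgtp1, read with Tgtp2, fell 2.15-fold, Iigp1 1.77-fold by its brighter probe set and Igtp 1.30-fold. Gbp2 and Gbp7 stood within 1.10-fold of control, above it in social threat without passing the test, and Gbp3 was 1.16-fold lower without passing it. A probe set was called at a limma p adjusted by Benjamini-Hochberg under 0.05 over all 45037 probe sets. By that rule 3 of the 12 probe sets were called lower and 0 higher, where 8.67% of all probe sets were called lower and 7.09% higher. At an unadjusted p under 0.05, limma put 7 of the 12 below control and 0 above, against 14.7% and 11.6% of all probe sets. Pools of the groups were apart and lower for 7 of 12, against 28.6% of all probe sets, and apart and higher for 3 of 12, against 24.1%. Values below are log2 expression, and differences are social threat minus control with the standard error (SE) of limma.

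Among the effector IRGs, the probe set shared by Tgtp1 and Tgtp2 stood at 8.49 and 8.33 in the control pools and at 7.34 and 7.27 in the social threat pools. Each control pool was above each social threat pool by almost 1 log2 unit or more. The difference was -1.10 (SE 0.09, 95% CI -1.30 to -0.91, adjusted p = 2.79e-05), and it was called under all 9 alternative settings run for it. The arrays cannot say which of the paired genes it came from. Iigp1 was read by a pair of its own probe sets. The brighter one stood at 6.19 and 5.94 in controls and at 5.33 and 5.15 under social threat, so the groups did not overlap. Its difference was -0.82 (SE 0.13, adjusted p = 0.00221), and it was called under all 9 alternatives. The dimmer one stood at 5.01 and 5.05 against 4.70 and 4.66, again without overlap, with a difference of -0.35 (SE 0.12, adjusted p = 0.0844) that did not pass. It lay close to the median of all probe sets, 4.42, where the values give no detection call and background can shrink a difference. Whether background did so here was not tested. This probe set was called by limma without the mean-variance trend (adjusted p = 0.0452) and with probe sets below the median level left out (0.0471).

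Among the regulatory IRGs, Igtp (Irgm3) stood at 9.38 and 9.25 in controls and at 8.96 and 8.91 under social threat. The groups did not overlap and the difference was -0.38 (SE 0.07, 95% CI -0.53 to -0.23, adjusted p = 0.00375). Without social threat pool 2 the difference was -0.35 and its adjusted p = 0.0852, above the threshold. Irgm2, the neighbouring gene of Igtp on chromosome 11, stood at 8.18 and 7.997 against 7.88 and 7.78. Its pools did not overlap either, but the difference of -0.26 (SE 0.09, adjusted p = 0.0895) did not pass. Over 9 alternative settings that difference ranged from -0.35 to -0.17. Irgm1, which is known to control macrophage autophagy and the survival of haematopoietic stem cells, stood at 7.88 and 7.93 against 7.73 and 7.65. That difference of -0.21 (SE 0.08, 95% CI -0.39 to -0.03, adjusted p = 0.122) did not pass. The 5 IRG genes thus ran from -1.10 to -0.21, with a median of -0.38, and the pools were apart and lower for each of them, a pattern shown by 32.1% of all genes.

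**Figure D2:**
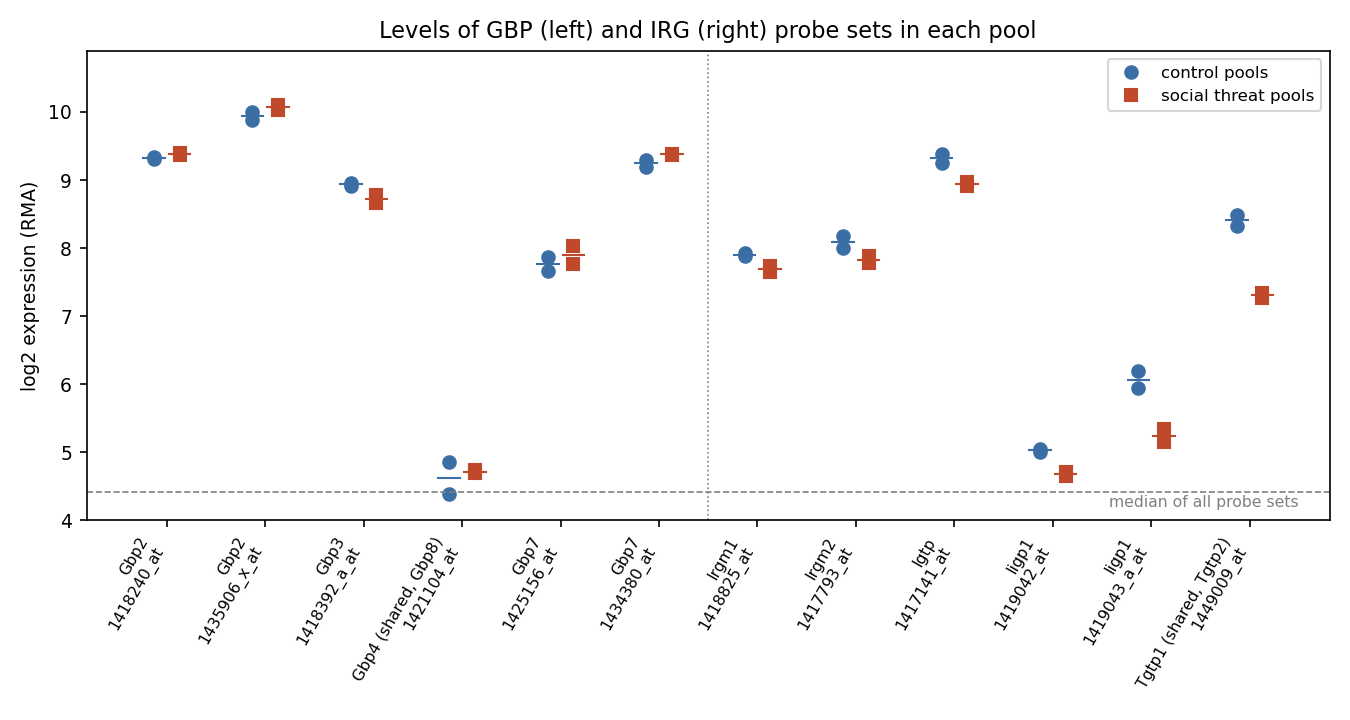
Log2 expression of the 12 member probe sets in each pool, with group means as short lines and the median of all probe sets dashed at 4.42. All 6 IRG probe sets have both social threat pools below both control pools, and the largest gap is that of the shared Tgtp1 probe set, from 8.41 to 7.30 on average.

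Among the GBPs, which rupture pathogen vacuoles and promote inflammasome signalling, Gbp2 was read by a pair of probe sets. The first stood at 9.31 and 9.34 in controls and at 9.37 and 9.40 under social threat, a difference of 0.06 (SE 0.06, 95% CI -0.06 to 0.19). The second stood at 9.88 and 10.002 against 10.04 and 10.10, a difference of 0.13 (SE 0.06, adjusted p = 0.198). Social threat pools were above control pools on each, but neither passed. Over 9 alternative settings the difference of the second ranged from 0.07 to 0.19.

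Gbp7 stood at 9.30 and 9.19 in controls and at 9.37 and 9.38 under social threat by its brighter probe set, a difference of 0.13 (SE 0.06, 95% CI -0.01 to 0.27, adjusted p = 0.216). Its other probe set stood at 7.66 and 7.86 against 8.04 and 7.77, with overlap, and a difference of 0.14 (SE 0.11, adjusted p = 0.494). Gbp3 was the measured GBP gene among the 10 that stood below control, at 8.96 and 8.91 against 8.77 and 8.66. Its groups did not overlap and its difference was -0.22 (SE 0.07, 95% CI -0.37 to -0.07), with an unadjusted p of 0.0103 and adjusted p = 0.061, just above the threshold. The difference of Gbp3 ranged from -0.28 to -0.16 over 9 alternative settings. Gbp7, Gbp3 and Gbp2 lie in 1 cluster on chromosome 3 with Gbp5 and Gbp2b, so neighbours in that cluster stood on both sides of 0.

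The probe set shared by Gbp4 and Gbp8 was dim, at 4.39 and 4.85 in controls and at 4.70 and 4.73 under social threat. The control pools lay on either side of the social threat pools, and the difference of 0.10 (SE 0.16, 95% CI -0.27 to 0.46, adjusted p = 0.787) turned to -0.14 without control pool 1. No level of Gbp4 can be separated from background here.

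Over the 4 represented GBP genes the median difference was 0.11 and the range -0.22 to 0.13. It was -0.03 without control pool 1. Averaged over these probe sets, the 2 social threat pools stood 0.03 above the control mean each, while the control pools stood 0.05 below and above it. Averaged over the 5 IRG probe sets, the social threat pools stood 0.51 and 0.61 below the control mean and the control pools 0.07 to either side. The difference between the families was not tested. Over all 9 represented genes the median was -0.22, beside -0.02 over all 18193 genes, and 3 of 9 were called lower, against 11.7% of all genes. Without control pool 2, 6 of the 9 genes were called, 5 lower and 1 higher, in a fit that called 19.4% of all probe sets, against 15.8% with all pools.

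**Figure D3:**
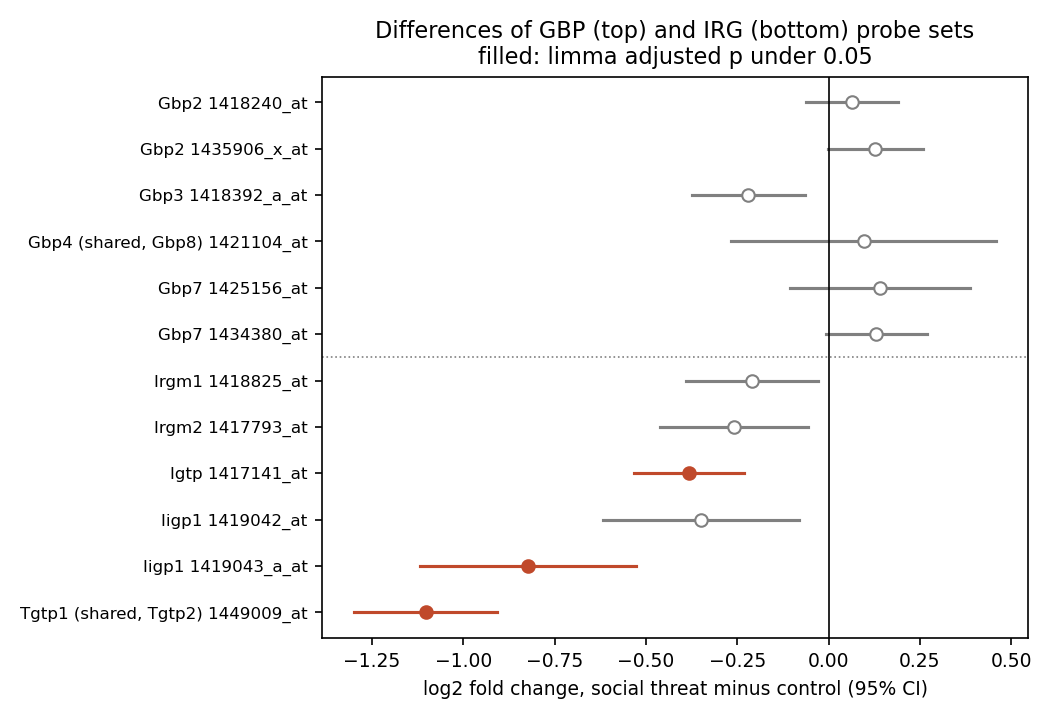
Log2 fold change with 95% confidence interval for each member probe set, filled where limma's adjusted p was under 0.05. The 3 called probe sets are those of Igtp, Iigp1 and the Tgtp1 and Tgtp2 pair, at -0.38, -0.82 and -1.10, and no GBP probe set was called.

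Other GBP and IRG genes and the related Mx1 and Mx2, listed together and read by probe sets of their own, also included genes below control. Counts of listed genes are set beside those over all genes, of which 11.7% were called lower and 9.40% higher. Of 22 listed symbols 8 were measured, of which 3 were called lower (Gbp8, Gm4951 and Mx1) and 0 higher, with a median of -0.39. Pools were apart and lower for 7 of 8, against 32.1% of all genes. Gbp8 stood at 7.81 and 7.77 in controls and at 7.17 and 7.16 under social threat, and fell by 0.63 (SE 0.08, adjusted p = 0.000688). It thus fell by its own probe set, while the one that it shares with Gbp4 did not pass. Gm4951, an IRG gene model, fell by 0.56 (SE 0.14, adjusted p = 0.0222) from 4.53 and 4.22 to 3.77 and 3.86, all near or below the median of all probe sets. It lost its call without control pool 1 (adjusted p = 0.0902), social threat pool 1 (0.18) or social threat pool 2 (0.107). Gbp6, at 5.02 and 5.34 against 4.52 and 4.87, differed by -0.48 (SE 0.16, adjusted p = 0.0797). That difference ranged from -0.65 to -0.31 over 9 alternative settings. Mx1, a dynamin-like antiviral GTPase induced mainly by type I interferon, fell by 0.79 (SE 0.08). Ifi47 (Irgd), an IRG gene near Tgtp2 that was added after its values were seen, stood at 10.07 and 9.94 against 9.60 and 9.54. It fell by 0.43 (SE 0.06, adjusted p = 0.00107).

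The ligand and its receptor chain were also read. Ifng stood at 3.71 and 4.01 in controls and at 3.72 and 3.43 under social threat, all below the median of all probe sets, so no level of the cytokine's transcript can be given. Ifngr1, the ligand-binding receptor chain, stood at 10.94 and 10.93 against 10.74 and 10.80, and fell by 0.17 (SE 0.04, adjusted p = 0.0189). That call was lost without social threat pool 1 (adjusted p = 0.259) or pool 2 (0.11) and without the mean-variance trend (0.252). Ifngr2, the second chain, stood at 9.91 and 10.14 against 9.95 and 10.04, with overlap, and its difference of -0.03 (SE 0.08) was 0.08 without control pool 2 and 0.02 without social threat pool 1.

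The kinase Jak1 differed by -0.08 (SE 0.04, adjusted p = 0.278). Jak2 fell by 0.29 (SE 0.06, adjusted p = 0.00765), a call lost without social threat pool 2 (adjusted p = 0.154) and without the trend (0.091). Irf1, whose product is known to bind ISRE elements, stood at 11.14 and 11.12 against 10.71 and 10.73, and fell by 0.41 (SE 0.04, adjusted p = 8.95e-05) in pools that did not overlap. Irf8, a myeloid partner factor at such elements and a lineage factor of monocytes and dendritic cells, fell by 0.78 (SE 0.06). Ptpn2, a phosphatase that limits the pathway, fell by 0.26 (SE 0.07, adjusted p = 0.0284), and lost its call without control pool 1 (0.0608), social threat pool 1 (0.226) or pool 2 (0.159) and without the trend (0.172). Stat2 and Irf2 differed by -0.33 and -0.20, not called. Over 9 alternative settings Stat2 ranged from -0.42 to -0.24 and Irf2 from -0.27 to -0.12. Of the 15 measured signalling genes, 5 were called lower and 0 higher, against 11.7% and 9.40% of all genes, with a median of -0.18. Calls numbered 3 without social threat pool 1, 2 without pool 2 and 2 without the trend.

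Of 12 measured genes that act in the induction of interferon-gamma, 4 were called lower and 2 higher, with a median of -0.05, against 11.7% and 9.40% of all genes. Il12b, a subunit of interleukin-12, fell by 1.18 (SE 0.19) from 5.41 and 5.73 to 4.65 and 4.12, near the median of all probe sets. Tbx21, the factor T-bet of NK and type 1 T cells, fell by 1.07 (SE 0.12). It went from 5.71 and 5.73 to 4.75 and 4.56, where the social threat pools were also near that median. Ebi3, a subunit of interleukin-27, rose by 0.54 (SE 0.05), and Il18r1, an interleukin-18 receptor chain, rose by 0.51 (SE 0.09), with adjusted p = 0.123 without social threat pool 1. The 4 falls became 2 without social threat pool 2.

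Other genes that interferon-gamma induces were lower more often than not. Of 25 measured, 16 were called lower and 1 higher, with a median of -0.28, against 11.7% and 9.40% of all genes. The 16 became 9 without social threat pool 2 and 8 without the trend. Ciita, the activator of MHC class II genes, fell from 6.68 and 6.86 to 5.54 and 5.50, by 1.25 (SE 0.11). Cd40, a costimulatory receptor of B cells, dendritic cells and macrophages, fell from 8.44 and 8.46 to 7.21 and 7.21, by 1.24 (SE 0.08). Cxcl9, a chemokine for activated T cells, fell by 1.36 (SE 0.07). Upp1, uridine phosphorylase, was the 1 called higher and rose by 1.85 (SE 0.06). Type I interferon targets were called lower for 10 of 24 and higher for 2, with a median of -0.21. The 10 falls became 6 without social threat pool 1 and 5 without pool 2. Usp18, an inhibitor of type I interferon signalling, fell by 0.56 (SE 0.09) and Ifit3 by 0.53 (SE 0.07). Bst2 and Irf7 fell by 0.69 and 0.48.

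**Figure D4:**
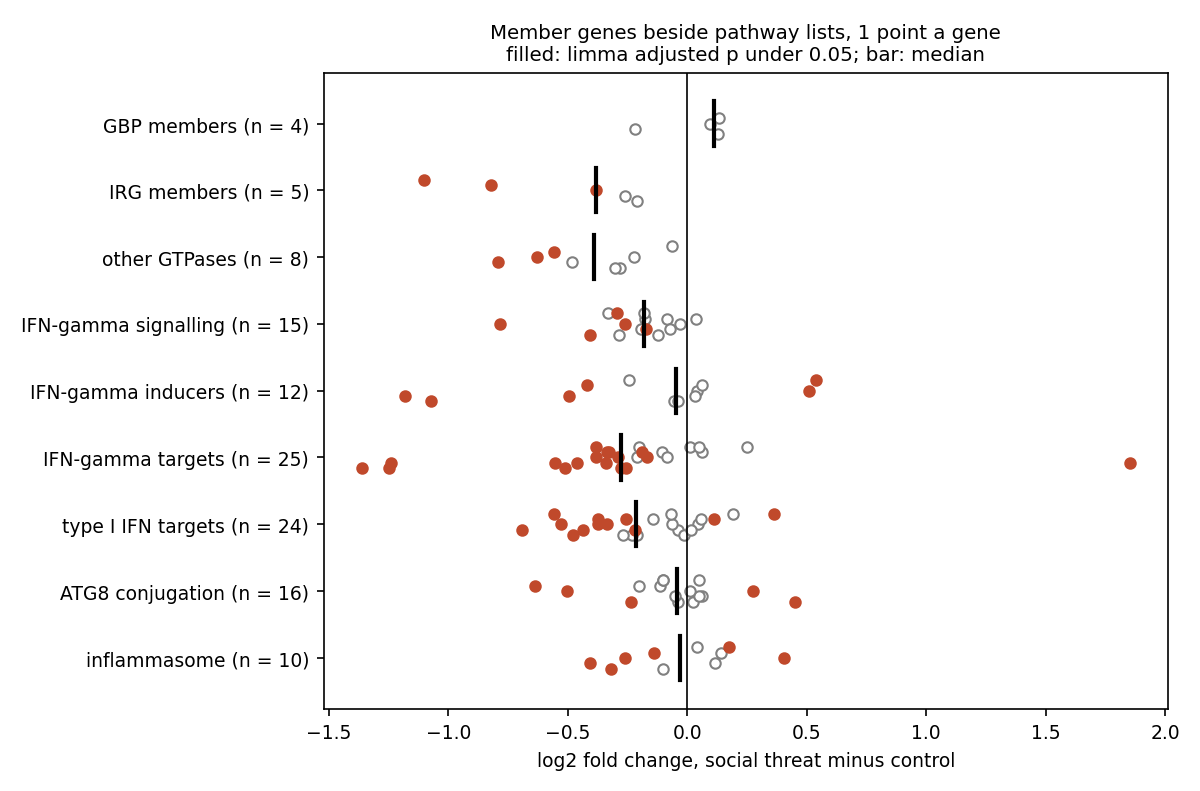
Log2 fold change of each measured gene in the member families and 7 pathway lists, filled where called, with the median as a bar. The GBP median lies at 0.11, the IRG median at -0.38 and that of interferon-gamma targets at -0.28, with Upp1 at 1.85.

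ATG8 proteins, their conjugation machinery, which directs GBPs and IRGs to vacuoles, autophagy adaptors and ubiquitin ligases were listed together. Of 16 measured genes, 3 were called lower and 2 higher, against 11.7% and 9.40% of all genes, with a median of -0.04. Gabarapl1, an ATG8 protein, fell by 0.64 (SE 0.06) and the autophagy adaptor Sqstm1 by 0.50 (SE 0.03). Map1lc3a, another ATG8 protein, rose by 0.45 (SE 0.05). Atg7, the activating enzyme, rose by 0.28 (SE 0.08), a call lost without control pool 2 (adjusted p = 0.0562), social threat pool 1 (0.4) or pool 2 (0.146) and without the trend (0.113). Among 10 inflammasome genes, which act downstream of GBPs, 4 were called lower and 2 higher, with a median of -0.03. Nlrp3 fell by 0.41 (SE 0.05) while the adaptor Pycard rose by 0.41 (SE 0.04). The sensors Aim2 and Naip5 fell by 0.32 and 0.26. Aim2 lost its call without control pool 2 (adjusted p = 0.0804), social threat pool 1 (0.252) or pool 2 (0.307), without the trend (0.0745) and after quantile normalisation (0.0576). Naip5 lost its call without control pool 1 (0.0849), social threat pool 1 (0.144) or pool 2 (0.365) and without the trend (0.135). The 4 falls became 1 without either social threat pool.

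Markers of cell types also differed between the groups, some lists mostly falling, like the IRG genes, and others mostly rising. In bulk samples fewer cells of a type and less RNA per cell cannot be told apart. Marker counts are to be read beside the 11.7% of all genes called lower and 9.40% called higher. NK cell markers were called lower for 7 of 11 genes, and their summed level on the linear scale was 4932 to 5024 in control pools and 2656 to 2746 in social threat pools. Bright genes weigh most in such sums. The brightest NK marker, Ccl5, averaged 11.24 in control pools and 10.14 in social threat pools. T cell markers fell for 11 of 11, with sums of 1736 to 1794 and 864 to 900. B cell markers fell for 10 of 11, with sums of 4834 to 4912 and 2297 to 2409. None of these NK, T and B cell markers had a mean below the median of all probe sets.

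Myeloid markers split. Conventional dendritic cell markers fell for 9 of 11 and rose for 1 (sums of 11120 to 11414 and 9002 to 9056). The 1 that rose, Cd24a, was the brightest of that list, at 12.25 in control and 12.63 in social threat on average. Red pulp macrophage markers fell for 10 of 13 (sums of 15592 to 15835 and 11434 to 11502). Patrolling monocyte markers fell for 8 of 10 (sums of 12831 to 13509 and 9698 to 9843) and plasmacytoid dendritic cell markers for 6 of 8 (sums of 1789 to 1861 and 1046 to 1062). Classical monocyte markers went both ways, 2 up and 3 down among 8, with sums of 26447 to 27176 and 28167 to 28306. Chil3, 1 of the 2 that rose, was also listed as an immature neutrophil marker. It stood at 12.70 and 12.74 in controls and at 13.29 and 13.34 under social threat, and weighs heavily in the classical monocyte sum. Immature neutrophil markers rose for 12 of 12 with sums of 40328.5 to 41000.2 and 78335.5 to 78712.9, mature neutrophil markers rose for 7 of 9 and fell for 2, with sums of 58235 to 58410 and 71154 to 71216, and erythroid markers rose for 7 of 9, with sums of 916 to 1003 and 1973 to 2054. Markers of stroma and endothelium fell for 2 of 9, with sums of 689 to 743 and 519 to 541. Below the median of all probe sets lay 3 stromal markers and 1 each of the conventional dendritic, plasmacytoid and erythroid lists. Itgam, which encodes CD11b, stood at 10.47 and 11.01 in controls and at 11.64 and 11.59 under social threat, and rose by 0.88 (SE 0.13, adjusted p = 0.0015). The part of these markers in the fall of the IRG genes was not tested.

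**Figure D5:**
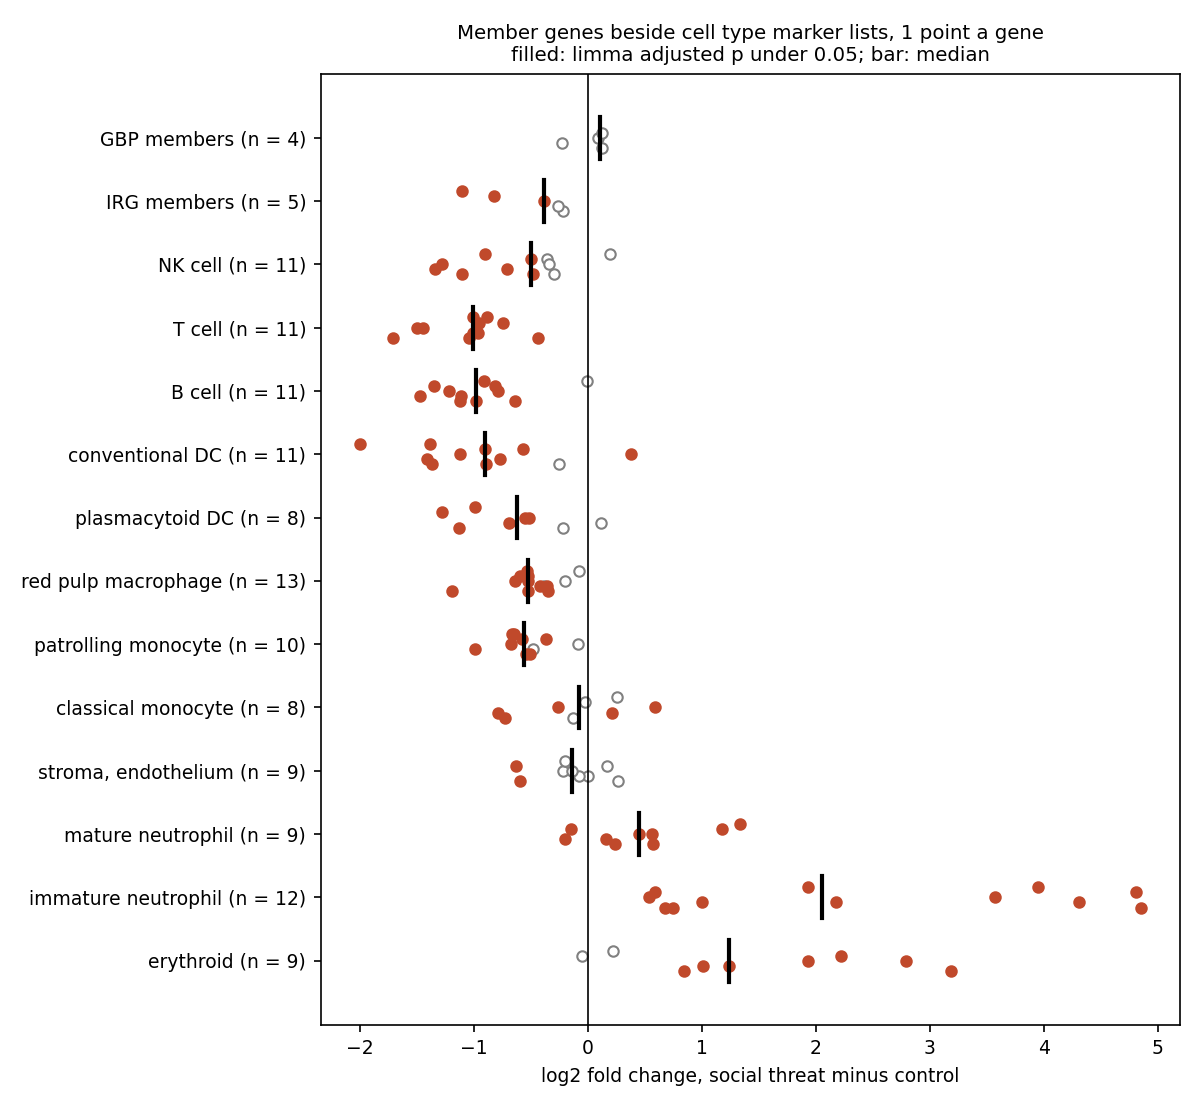
Log2 fold change of each measured gene in the member families and 12 cell type marker lists, filled where called, with the median as a bar. The IRG median is -0.38. Lymphoid medians are also below 0 (T cell -1.003, B cell -0.98, NK cell -0.50), as are those of conventional (-0.90) and plasmacytoid (-0.62) dendritic cells. So are those of patrolling (-0.56) and classical (-0.07) monocytes, red pulp macrophages (-0.52) and stroma and endothelium (-0.14). Medians of mature neutrophil (0.45), erythroid (1.24) and immature neutrophil (2.06) markers are above 0.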

How the data were processed

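Total RNA of CD11b+ splenocytes was measured on 4 Affymetrix MOE430 2.0 arrays, 1 per pool of 5 mice, with groups and pool numbers taken from the sample titles. Each deposited value is the log2 expression of a probe set, which the authors computed with RMA per the submitters' processing notes, with no version given. RMA corrects background, equalises the arrays' distributions and shrinks differences of dim probe sets, and it gives no detection calls. Array medians lay between 4.41 and 4.43 and values between 2.26 and 14.25. The number of arrays limits the precision. The p-values of limma weigh a difference against the spread between pools, which may be partly technical. With 2 residual and 7.14 prior degrees of freedom, that spread is mostly estimated from other probe sets of similar level. An exact permutation test of 2 pools against 2 cannot go below p = 0.333 (two-sided), so none is given.

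Probe sets were named through GEO's platform annotation (34945 with 1 symbol, 932 with several, 9160 unlisted). Differences between the groups were fitted with limma 3.58.1 under R 4.3.3 (lmFit, eBayes with a mean-variance trend, 2 residual and 7.14 prior degrees of freedom, two-sided, Benjamini-Hochberg over 45037 probe sets). A gene was represented by its own probe set with the highest mean, or by its brightest shared one where it had none. The code was tested on simulated data. Motif searches used Python 3.11.15. Named genes were all members, Ifng, its receptor and kinase genes and Irf1 whatever their values, and up to 4 further genes of each pathway list, called ones first and then by size. A planned motif search in the proteins was not run here. One more gene fixed for naming is not reported here. The members and lists were chosen with earlier results of these data known. The alternatives were the fit without the trend, quantile normalisation, median centring, a filter on dim probe sets, pool number as a block, each pool left out, and the mean of a gene's probe sets.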

Additional observations from a re-analysis of the deposited data

How the results depend on the processing

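Among the members, the calls of Iigp1 (brighter probe set) and of the shared Tgtp1 probe set held in all 9 alternatives run on them, and that of Igtp in 8. The number of member probe sets called, 3, became 5 with probe sets below the median level left out, and 5 with the replicate block, and ranged from 2 to 6 with single pools left out. The number of member genes called, 3, became 5 with the replicate block and 6 with the mean of a gene's own probe sets, a fit over 19125 rows in which Gbp3, Irgm1 and Irgm2 passed as well (adjusted p = 0.0242, 0.0398 and 0.0413), and ranged from 2 to 6 with single pools left out. The share of all rows called was 15.8% in the main fit and 33.1% with probe sets below the median level left out. It was 18.1% with the block and 22.9% with gene means. Gbp3, Irgm1 and Irgm2 have 1 probe set each, so their differences were the same with gene means. Their SEs were smaller there, at 0.057 against 0.068, 0.061 against 0.080 and 0.076 against 0.089. The cause of the shifts in the counts was not tested. The members' median difference, -0.22, moved by less than 0.094, the spread between pools, in every alternative. Pathway genes called lower, 45, became 27 without the mean-variance trend and 23 to 49 with single pools left out, where a fit without 1 pool assumes that the lone pool varies like the other group. With single pools left out, signs turned for the shared Gbp4 probe set (-0.14 to 0.33, below 0 without control pool 1) and for Ifngr2 (-0.15 to 0.083, above 0 without control pool 2 or, at 0.016, social threat pool 1). Pools share only a number: deviations of the pools numbered 1 correlated at 0.052 across probe sets. With the block 8168 probe sets were called, against 7099, and among named genes Gbp3, Irgm2, Gbp6 and Stat2 passed (adjusted p = 0.038, 0.041, 0.0197 and 0.0423). Over all probe sets, calls ranged from 3171 without social threat pool 2 to 8721 without control pool 2, with 3341 without social threat pool 1, 7264 without control pool 1 and 4689 without the trend.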
